A study of Rattus norvegicus with 18 samples.

Results

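The genes described here are the solute carrier genes of rat NRK-52E kidney cells, that is, genes whose symbol begins with Slc and a number, other than 11 that were set apart by name. The array annotation gave 295 such symbols, which left 284, and each was represented by its probe set with the highest mean over the 18 arrays. A gene was kept where that probe set reached log2 4 or more on at least 3 arrays, so the measured level chose the members. This left 136 of 284 genes (47.9%), while 63.4% of the 14217 genes with a single symbol passed the same filter. Of the 136, 127 reached log2 4 on all 18 arrays, and 0 passed through 1 group alone. Just inside the filter lay Slc26a6, Slc9a8, Slc8b1 and Slc38a9, with a third-highest array between 4.13 and 4.85. Just outside lay Slc25a42, Slc28a2, Slc25a29 and Slc22a18, with a third-highest array between 3.36 and 3.86. The 148 genes below the filter had means between 1.64 and 3.67, close to the background of the array, and are not described further.

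NRK-52E is an established line of rat kidney tubule cells, described in the labels as proximal tubular and of Osborne-Mendel strain, and all samples came from this line. Confluent cultures received aristolochic acid, a nitrophenanthrene carcinogen of Aristolochia plants that injures the proximal tubule, at 1.65 µM in 0.1% DMSO. Control cultures received 0.1% DMSO alone, and RNA was taken after 6, 24 or 72 h. This gave 6 groups of 3 arrays, named below by agent and hour. The labels name the dose as the IC10 at 72 h and each sample as a biological replicate. Nothing in them says how the 3 cultures of a group were separated, so the p-values reflect only the variation among these cultures, which may be technical.

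Solute carriers are membrane proteins that move nutrients, ions, metals, nucleosides and metabolites across the cell membrane and the membranes of organelles, without using ATP directly. Many run on the sodium gradient set by the sodium pump, some on proton gradients, and others exchange one substrate for another. In the proximal tubule they are known for reclaiming filtered glucose, amino acids, phosphate and bicarbonate and for secreting organic anions and drugs. The Slc25 family is different in place, since most of its members sit in the inner mitochondrial membrane. The genes were grouped by the substrate their product is best known for, with 17 genes for amino acids and peptides, 28 mitochondrial carriers and 24 for metals and heme. Another 13 carry sodium, protons, chloride, bicarbonate, calcium or phosphate, 15 act on nucleotide sugars and other substrates of the ER and Golgi, and 8 carry vitamins and choline. Smaller groups held 4 genes for sugars, 3 for nucleosides, 3 for neurotransmitters and osmolytes, 2 for fatty acids, 2 for organic ions and 1 for monocarboxylates. For the remaining 16 no substrate was assigned or the product is not a carrier.

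Marker genes bear on how the cells should be read. Of 11 proximal tubule markers on the array, 3 passed the filter (Aqp1, Ggt1 and Slc4a4), and Lrp2, Cubn, Anpep, Hnf4a, Slc34a1, Slc5a2, Slc22a6 and Slc22a8 stayed below log2 4 on every array. Of 7 renal epithelial markers, Krt8 and Tjp1 were well measured and Krt18, Krt19, Cdh1, Epcam and Pax8 stayed below log2 4. Of 9 fibroblast and mesenchymal markers 7 passed, of 6 loop, distal and collecting duct markers 0, of 3 endothelial markers 1 (Tek) and of 4 immune markers 2 (Cd14 and Cd68, with Ptprc and Cd3e below log2 4). The summed proximal tubule markers differed at 72 h, from 9.57 to 9.66 in DMSO and from 7.26 to 7.71 in AA on the log2 scale. This sum rests on the 3 genes that passed, whose separate differences are not given here. The summed endothelial markers ran from 6.27 to 6.52 and from 4.56 to 4.91. That sum rests on Tek alone, since Pecam1 and Kdr stayed below log2 4 on every array, and 1 gene does not identify a cell type. The fibroblast sums overlapped, at 15.62 to 15.84 and 15.50 to 15.68, as did the immune sums, and the renal epithelial sums were 14.32 to 14.42 and 14.46 to 14.56. In bulk cultures such as these, fewer cells of a type and less RNA per cell cannot be told apart.

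Values are the deposited log2 expression values, a difference is AA minus DMSO on that scale, and ± after a difference is its standard error. A gene passed a comparison at an adjusted p under 0.05 in a limma fit of all 9015 genes that passed the filter, and "rose" and "fell" are used only then. Levels of different genes come from different probe sets and are not set against each other.

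At 72 h, 78 of the 136 genes passed, 61 higher and 17 lower in AA. This was 57.4% of them, against 47.2% of all genes tested, and the shares by direction were 44.9% higher and 12.5% lower, against 27.4% and 19.8% of all genes. Their median difference was 0.22, against 0.05 over all genes. A change of at least 2-fold was passed by 15 genes that rose and 5 that fell, where the background was 4.28% and 4.85%. The 3 AA arrays all lay above the 3 DMSO arrays for 71 genes and all below them for 21 (67.6%, against 59.6% of all genes). At 6 h, 40 genes passed, 21 higher and 19 lower (29.4%, against 24.5%), and at 24 h 0 passed (against 2.09%). With each array centred on its median the 6 h split was 29 higher and 15 lower, and the 72 h split 60 and 17. Centring added 0.08 to the 6 h difference of every gene and 0.02 to the 72 h difference, whether or not it was a solute carrier. No share of all genes is given for counts with centred arrays, here or below, so such a split is not a result about solute carriers.

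**Figure D1:**
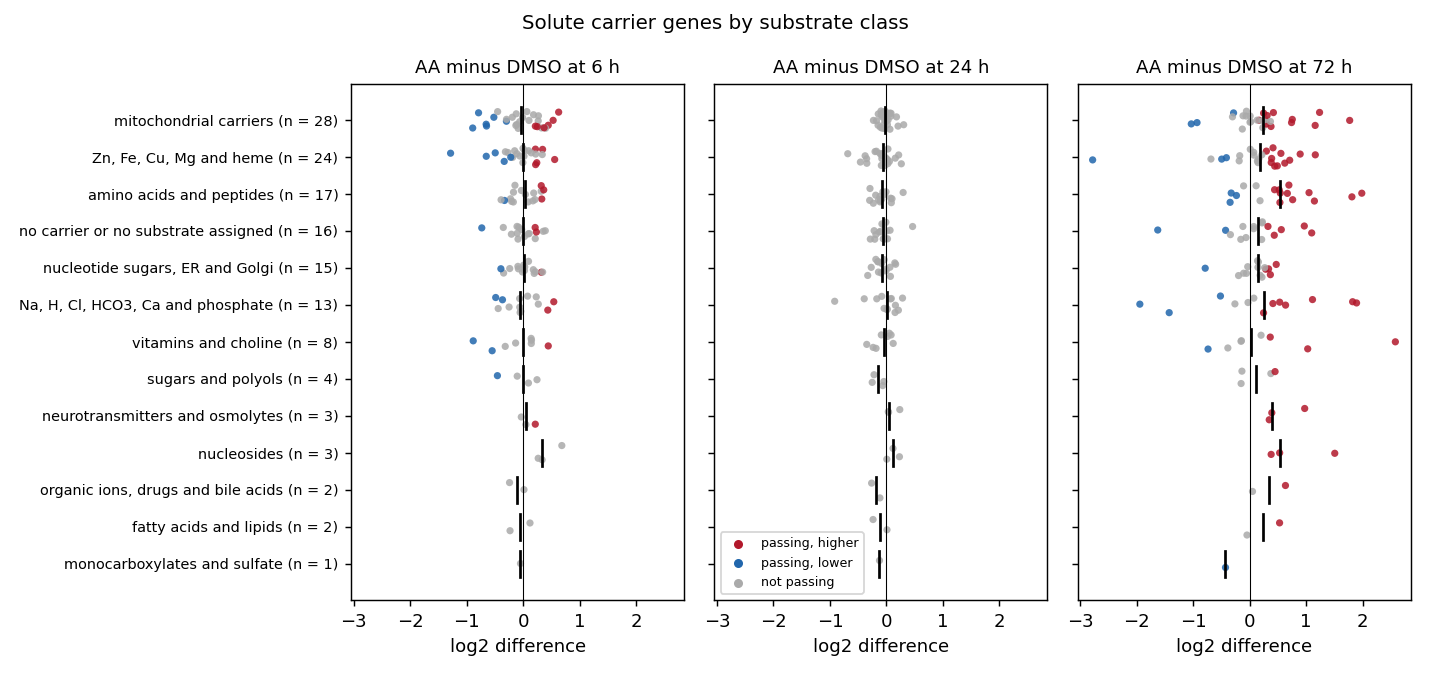
Difference between AA and DMSO (horizontal axis, log2) for each of 136 solute carrier genes, in rows by substrate class, at 6, 24 and 72 h; each point is a gene, coloured where it passed the limma test, and each black bar is the class median. At 72 h the amino acid class has a median of 0.54 and 11 of its 17 genes are coloured as higher, while no point is coloured at 24 h.

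RNA quality moved with the 72 h comparison. The 3' minus 5' difference of the beta-actin control probe sets was 1.29 to 1.45 in DMSO 72 h, 1.85 to 2.16 in AA 72 h and 0.98 to 1.27 in the other 4 groups. For the Gapdh control it was -0.28 to -0.13 in DMSO 72 h and -0.12 to -0.04 in AA 72 h. The part of RNA quality, and of the marker sums above, in the 72 h results was not tested.

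Of the 17 amino acid transporters, 11 rose (64.7%) and 3 fell (17.6%) at 72 h, with a median difference of 0.54. Over all 136 genes 44.9% rose and 12.5% fell, and over all genes tested 27.4% and 19.8%. Slc7a5 encodes the light chain of the large neutral amino acid exchanger, which brings leucine and other essential amino acids into the cell. Its DMSO 72 h arrays read 4.71, 4.62 and 4.98, and its AA 72 h arrays 6.48, 6.87 and 6.92. Every AA array lay above every DMSO array, a difference of 1.99 ± 0.16 (3.96-fold, adjusted p = 4.66e-09). Its partner Slc3a2, the heavy chain that carries several such exchangers to the cell surface, rose by 0.54 ± 0.08 (adjusted p = 1.71e-05). Slc1a4, an exchanger of alanine, serine and cysteine, read 6.79, 6.89 and 6.82 in DMSO 72 h and 8.47, 8.60 and 8.86 in AA 72 h. The groups did not overlap and the difference was 1.81 ± 0.12 (adjusted p = 2.11e-10). Its relative Slc1a5, the main glutamine exchanger of proliferating cells, rose by 1.05 ± 0.12, and Slc43a2, a uniporter of neutral amino acids, by 1.15 ± 0.13. Of the cationic amino acid transporters of the cell surface, Slc7a6 rose by 0.67 and Slc7a1 by 0.52.

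Transporters of the lysosomal membrane were among those that rose. Slc66a1, which lets cationic amino acids out of the lysosome, rose by 0.76, Slc17a5, the sialic acid exporter, by 0.54, and Slc15a4, a carrier of histidine and peptides, by 0.44. The Slc15a4 call was lost without AA replicate 3 (0.35) and without DMSO replicate 1 (0.36). The lysosomal genes Slc38a9 and Slc38a7 were at 0.18 and 0.12 and did not pass. The 3 genes that fell are of the Slc38 family of amino acid transporters, while Slc38a6 of the same family rose by 0.70 (adjusted p = 0.00338). Slc38a2, the glutamine and alanine importer induced by amino acid shortage in many cells, was lower by a log2 difference of -0.23 ± 0.06 (adjusted p = 0.00484), Slc38a10 by -0.33 and Slc38a1 by -0.35. A second, dimmer probe set of Slc38a1 gave 0.58 at 72 h, so its direction differed between probe sets. Slc1a3, a glutamate transporter, was at -0.11 and did not pass, and its other probe sets gave -0.89 and 0.23.

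Several of the amino acid transporters also fell with time in DMSO. Slc7a5 read 8.67, 8.84 and 8.98 in DMSO at 6 h, 6.91, 6.36 and 6.88 at 24 h and 4.71, 4.62 and 4.98 at 72 h. It fell in DMSO by 2.11 on the log2 scale from 6 to 24 h and by 1.95 from 24 to 72 h (adjusted p = 1.86e-09 and 4.12e-08). The AA arrays read 6.37, 6.61 and 6.49 at 24 h, beside the 6.48, 6.87 and 6.92 given above for 72 h. Slc1a4 in DMSO fell by 0.98 from 24 to 72 h, while its AA arrays, which read 7.61, 7.75 and 7.93 at 24 h, all lay higher at 72 h. Slc43a2 in DMSO fell by 0.68, and its AA arrays read 6.76, 6.55 and 6.78 at 24 h and 7.25, 7.03 and 7.46 at 72 h, again all higher. A time difference within AA was not tested. Over the class, 8 of 17 genes fell and 3 rose in DMSO from 24 to 72 h (4 fell and 3 rose with each array centred on its median). Uncentred, 22.8% of the 136 genes fell and 9.56% rose, against 17.1% and 17.2% of all genes.

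**Figure D2:**
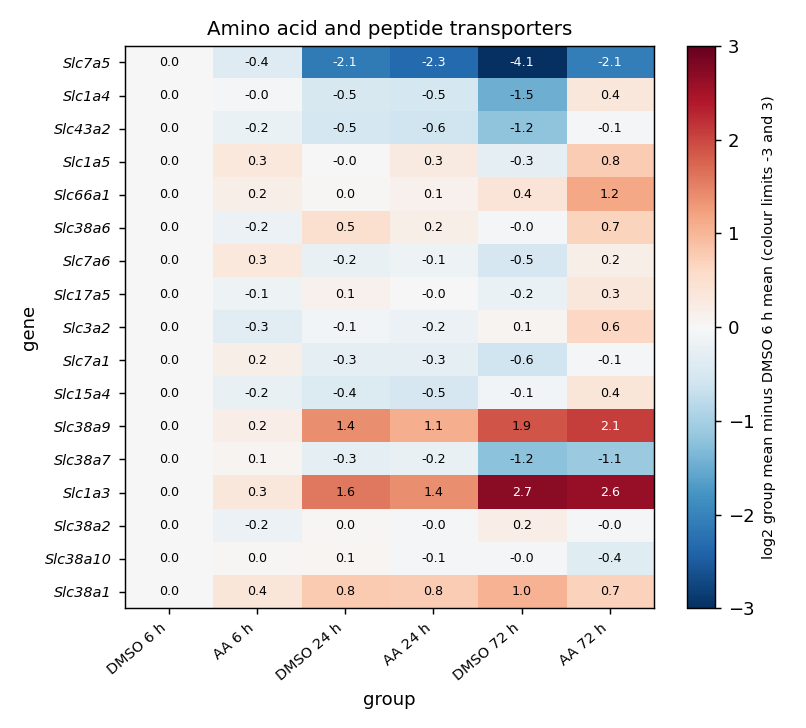
Group mean minus the DMSO 6 h mean (colour and printed value, log2) for the 17 amino acid and peptide transporters, in rows ordered by the difference between AA and DMSO at 72 h, over the 6 groups in columns. Slc7a5 shows the deepest decline in DMSO, while Slc1a3 and Slc38a9 are among the genes with higher means at 72 h than at 6 h in both arms. The 6 h means of Slc38a9, 2.80 in DMSO and 3.01 in AA, lie near the floor.

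Promoters of 112 of the 136 genes were found in RefSeq (build GRCr8) and the 250 bases before each start were searched on both strands. The core of the amino acid response element, a sequence known from genes induced when amino acids run short, was searched as TGATGNAA. It was present in 3.40% of 33469 promoters of the same length. Counted by gene, it was in 5 of the 112 (4.46%) and in 3.58% of 27457 genes with a promoter. The difference between these shares was not tested. The 5 genes were Slc1a4, Slc7a1, Slc35a2, Slc38a1 and Slc49a4. The first 3 of these rose at 72 h and the last 2 fell. The window of Slc7a5 held no match. The promoters of Slc1a4 (chr14:98761563-98761812, minus strand, match at position -235) and Slc7a1 (chr12:11664238-11664487, plus strand, match at position -30) are shown because they are the amino acid transporters that rose and hold the core, which is in capitals.
Slc1a4: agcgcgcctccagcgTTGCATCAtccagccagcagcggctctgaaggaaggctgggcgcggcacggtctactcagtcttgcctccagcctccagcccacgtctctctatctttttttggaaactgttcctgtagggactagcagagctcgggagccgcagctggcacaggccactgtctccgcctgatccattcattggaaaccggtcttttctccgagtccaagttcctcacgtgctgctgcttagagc
Slc7a1: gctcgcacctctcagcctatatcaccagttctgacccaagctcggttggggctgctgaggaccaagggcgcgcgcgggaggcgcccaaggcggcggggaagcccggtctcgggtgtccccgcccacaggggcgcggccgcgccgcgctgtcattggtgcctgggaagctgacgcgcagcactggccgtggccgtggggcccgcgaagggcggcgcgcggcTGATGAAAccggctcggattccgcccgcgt
Both genes rose at 72 h, and neither passed at 6 h or 24 h.

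The single largest increase at 72 h was in the vitamin class. Slc19a2, the high-affinity thiamine transporter, read 8.87, 9.004 and 8.91 in DMSO and 11.29, 11.65 and 11.59 in AA. The groups lay far apart, at 2.58 ± 0.14 (5.99-fold, adjusted p = 1.9e-11). At 6 h the same gene was lower in AA, at -0.55 ± 0.14, and at 24 h it was at 0.08. The 6 h call was lost without AA replicate 3, where the difference was -0.40. Slc5a6, the sodium-dependent carrier of biotin and pantothenate, rose by 1.03 ± 0.17 at 72 h, and the choline transporter gene Slc44a2 by 0.37. Slc44a1, another choline transporter, fell by 0.74 (adjusted p = 0.000147), but its 2 other probe sets of similar mean level gave -0.08 and -0.09. The reduced folate carrier Slc19a1 was at 0.20, the proton-coupled folate transporter Slc46a1 at -0.39, the ascorbate transporter Slc23a2 at -0.15 and the riboflavin transporter Slc52a2 at -0.15, and none of these 4 passed. In all, 3 of 8 rose (37.5%) and 1 fell (12.5%), with a median of 0.03. These shares were 44.9% and 12.5% over the 136, and 27.4% and 19.8% over all genes.

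Among carriers of inorganic ions, 7 of 13 rose (53.8%) and 3 fell (23.1%) at 72 h, with a median of 0.25. Of the 136, 44.9% rose and 12.5% fell, and of all genes 27.4% and 19.8%. All 4 measured members of the Slc12 family of cation and chloride cotransporters rose. Slc12a4, a potassium and chloride exporter used in cell volume control, read 7.73, 7.83 and 7.78 in DMSO and 9.39, 9.92 and 9.71 in AA. The groups did not overlap and the difference was 1.89 ± 0.14 (3.72-fold, adjusted p = 1.89e-09). Slc12a9, a relative known for binding other cotransporters, read 4.81, 4.88 and 5.09 in DMSO and 6.19, 7.29 and 6.77 in AA, a difference of 1.82 ± 0.26 (adjusted p = 1.24e-05). Slc12a7, another potassium and chloride exporter, rose by 0.64, and the sodium, potassium and chloride importer Slc12a2 by 0.25. Slc12a2 lost its call without AA replicate 2 (0.20) and without DMSO replicate 1 (0.18).

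The phosphate importers of the type III family moved apart. Slc20a1 rose by 1.11 ± 0.11 (adjusted p = 1.39e-07) and Slc20a2 was at -0.52 ± 0.15 (adjusted p = 0.00817). The chloride and bicarbonate exchanger Slc4a2 rose by 0.41 and the sodium and bicarbonate cotransporter Slc4a7 by 0.53. Both measured sodium and calcium exchangers of the cell surface fell. Slc8a1 read 8.55, 8.67 and 8.61 in DMSO and 7.23, 6.35 and 6.42 in AA, a difference of -1.94 ± 0.17 (adjusted p = 1.55e-08). Slc24a3, which also moves potassium, read 11.22, 11.27 and 11.35 in DMSO and 10.06, 9.85 and 9.67 in AA, a difference of -1.42 ± 0.12 (adjusted p = 6.01e-09). In neither did any AA array reach the DMSO range. The mitochondrial exchanger Slc8b1, of the same family, was at -0.26 and did not pass.

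**Figure D3:**
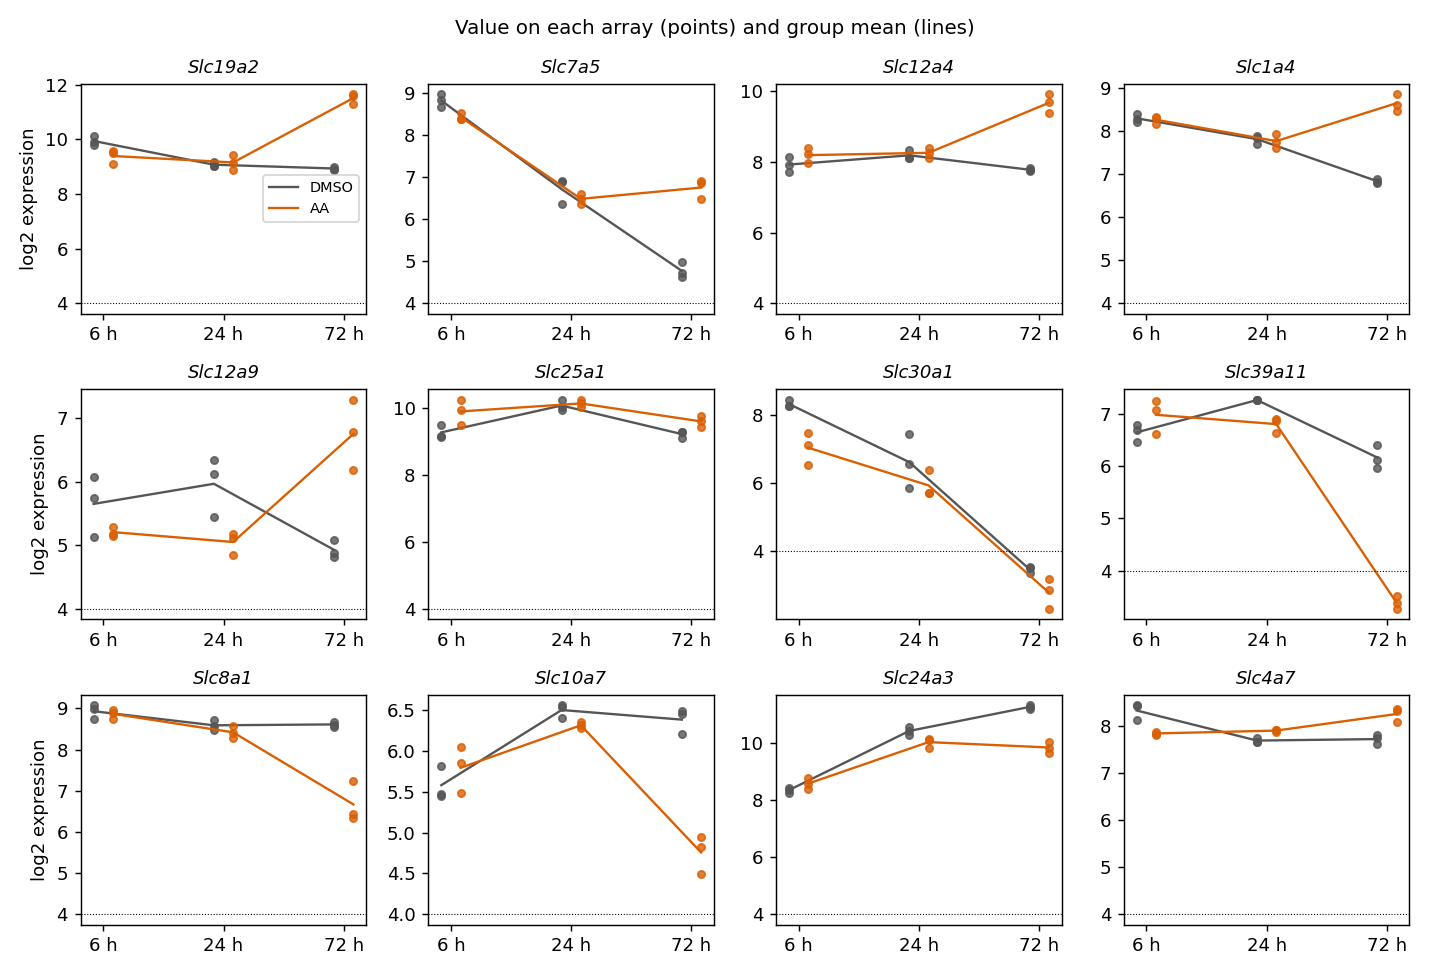
Level on each array (vertical axis, log2 expression) at 6, 24 and 72 h for 12 solute carrier genes, with points for arrays, lines for group means, grey for DMSO and orange for AA; the dotted line marks log2 4. AA and DMSO part at 72 h for Slc19a2, Slc7a5, Slc12a4, Slc1a4, Slc12a9, Slc39a11, Slc8a1, Slc10a7 and Slc24a3, while both arms of Slc30a1 decline below log2 4.

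Of the 28 mitochondrial carriers, 11 rose (39.3%) and 3 fell (10.7%) at 72 h, with a median of 0.23. The shares were 44.9% and 12.5% over the 136, and 27.4% and 19.8% over all genes. Slc25a25, a calcium-regulated carrier of ATP-magnesium and phosphate, read 6.14, 6.45 and 6.24 in DMSO and 7.87, 8.22 and 8.05 in AA. The groups did not overlap and the difference was 1.77 ± 0.16 (adjusted p = 3.02e-08). The glutamate carrier Slc25a22 rose by 1.24 ± 0.09, the pyrimidine nucleotide carrier Slc25a33 by 1.16 ± 0.21, Slc25a32, linked to folate and flavin transport, by 0.76 and the iron importer Slc25a28 by 0.74. The carriers of oxidative phosphorylation moved by little. The phosphate carrier Slc25a3 rose by 0.17 and the ADP/ATP exchanger Slc25a5 by 0.25, while its relative Slc25a4 was at -0.12 and did not pass. The Slc25a3 call was lost in 4 of 6 fits without 1 array (0.15 to 0.17).

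The aspartate and glutamate carriers of the malate-aspartate shuttle were lower at 72 h. Slc25a13 read 9.67, 9.67 and 9.46 in DMSO and 8.75, 8.40 and 8.57 in AA, with no overlap, a difference of -1.03 ± 0.10 (adjusted p = 1e-07). Its second probe set gave -1.68. Slc25a12, its close relative, was at -0.28 ± 0.11 (adjusted p = 0.0322) and lost its call in 4 of 6 fits without 1 array (-0.30 to -0.24). The third gene that fell was Slc25a51l1, at -0.93 ± 0.14 (adjusted p = 1.41e-05). At 6 h Slc25a13 stood on the other side, higher in AA by 0.44 ± 0.10 (adjusted p = 0.00538).

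Of the 24 genes for metals and heme, 11 rose (45.8%) and 3 fell (12.5%) at 72 h, with a median of 0.19. This is close to the 136 as a whole (44.9% and 12.5%), against 27.4% and 19.8% of all genes. The copper transporters Slc31a2 and Slc31a1 rose by 1.16 ± 0.16 and 0.39 ± 0.09. Of the 8 zinc importers of the Slc39 family, 5 rose and 1 fell. Slc39a3 rose by 0.90, Slc39a10 by 0.71, Slc39a6 by 0.62, Slc39a14 by 0.49 and Slc39a1 by 0.38. Of the 6 zinc transporters of the Slc30 family, which holds the exporter Slc30a1, 2 rose and 0 fell. These were Slc30a4 (0.41) and Slc30a5 (0.30). The magnesium transporter Slc41a1 rose by 0.55. The largest fall among all solute carriers was in Slc39a11, an intracellular member of the zinc importer family. It read 5.97, 6.41 and 6.13 in DMSO and 3.52, 3.27 and 3.37 in AA, a difference of -2.78 ± 0.16 (adjusted p = 6.93e-11). All its AA arrays were below log2 4, close to the floor, so the size of this difference depends on the background model of the authors' processing. The iron importer Slc11a2 was at -0.41 ± 0.12 (adjusted p = 0.00684), with a second probe set at 0.28, and lost its call when probe sets were averaged. The iron exporter Slc40a1 was at 0.22 and did not pass, while its other probe sets gave 0.61 and 1.35. It passed without AA replicate 2, at 0.37, and was at 0.03 without AA replicate 3.

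Slc30a1 encodes the zinc exporter of the cell surface, whose gene is known to be switched on by zinc through the metal-responsive factor. It had the largest fall of any solute carrier in DMSO from 24 to 72 h. It read 8.27, 8.28 and 8.47 in DMSO at 6 h, 7.46, 6.56 and 5.86 at 24 h, and 3.50, 3.55 and 3.36 at 72 h. The time differences were -1.71 ± 0.32 (adjusted p = 0.00012) and -3.15 ± 0.32 (adjusted p = 5.02e-07), the second reaching levels below log2 4. In AA it read 7.48, 7.13 and 6.54 at 6 h, below every DMSO array, for a difference of -1.29 ± 0.32 (adjusted p = 0.00752). Without AA replicate 3 the 6 h difference was -1.03 and did not pass. At 24 h and 72 h AA stood at -0.68 against DMSO each time, and neither passed. The 24 h value was -0.27 without DMSO replicate 1 and -1.07 without DMSO replicate 3, and the 72 h value was -0.45 without AA replicate 2.

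The metal response element core, searched on both strands as TGCACNC or TGCGCNC, had 2 matches in the 250 bases before the start of Slc30a1 (chr13:106021769-106022018, plus strand, positions -91 and -18). The sequence is shown because this gene fell most in DMSO from 24 to 72 h, and the matches are in capitals, as they read on the strand printed.
Slc30a1: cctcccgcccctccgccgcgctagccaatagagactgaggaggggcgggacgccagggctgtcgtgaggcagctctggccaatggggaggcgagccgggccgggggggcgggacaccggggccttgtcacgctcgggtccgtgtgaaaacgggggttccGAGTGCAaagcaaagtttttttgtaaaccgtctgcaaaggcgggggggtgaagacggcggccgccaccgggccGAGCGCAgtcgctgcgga
A match to this short core was present in 20.6% of all 33469 promoters. Counted by gene, it was in 44 of the 112 solute carrier genes (39.3%) and in 22.5% of 27457 genes with a promoter, and the difference between these shares was not tested.

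All 3 nucleoside transporters rose at 72 h, where 44.9% of the 136 and 27.4% of all genes did. Slc29a1, the main equilibrative nucleoside transporter, read 4.17, 4.22 and 4.16 in DMSO and 5.10, 6.04 and 5.93 in AA, a difference of 1.51 ± 0.26 (adjusted p = 0.000109). Its DMSO arrays lay just above log2 4, so the size of this difference may depend on the background model. At 6 h its means were below log2 4, at 3.23 in DMSO and 3.91 in AA. Slc29a2 rose by 0.53 and the lysosomal Slc29a3 by 0.38. In the neurotransmitter and osmolyte class the creatine transporter Slc6a8 rose by 0.98 ± 0.09, the glycine transporter Slc6a9 by 0.39 and the taurine transporter Slc6a6 by 0.35. Slc6a9 did not pass with each array centred on its median, nor in 4 of the 6 fits without 1 array, and was at 0.19 without AA replicate 2. Slc29a3 did not pass in 3 of 6 such fits (0.30 to 0.40). Second probe sets gave 0.43 for Slc6a8 and 0.03 for Slc6a6, and Slc6a6 lost its call when probe sets were averaged.

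In the ER and Golgi class 4 of 15 genes rose (26.7%) and 1 fell (6.67%) at 72 h, with a median of 0.16. The share that rose was near the 27.4% of all genes and below the 44.9% of the 136. Of all genes 19.8% fell, and of the 136 12.5%. Slc35a2, the UDP-galactose transporter of the Golgi, rose by 0.47 and Slc35b1, an ATP carrier of the ER, by 0.37. Slc37a1, a sugar phosphate exchanger of the ER, fell by 0.79 ± 0.17 on the log2 scale (adjusted p = 0.00105). The monocarboxylate transporter Slc16a1, which carries lactate and pyruvate, was at -0.43 ± 0.08 (adjusted p = 0.000329). The carnitine transporter Slc22a5 rose by 0.64 ± 0.11 and the fatty acid transporter Slc27a4 by 0.53 ± 0.17. The Slc27a4 call was lost without AA replicate 3 (0.47) and without DMSO replicate 1 (0.45). Of the 4 sugar carriers, Slc2a8 was at 0.45 ± 0.18 with overlapping arrays and lost its call in 8 settings. These were leaving out each array but AA replicate 1 in turn (0.28 without AA replicate 2), centring the arrays, fitting the 72 h arrays alone and using no filter.

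Among the 16 genes without an assigned substrate, 5 rose (31.25%) and 2 fell (12.5%) at 72 h. Of the 136, 44.9% rose and 12.5% fell, and of all genes 27.4% and 19.8%. Slc10a3, an orphan relative of the bile acid transporters, rose by 1.10 ± 0.13 and Slc35e4 by 0.97 ± 0.11. Slc10a7, of the same family as Slc10a3 and linked in human disease to skeletal and glycosaminoglycan defects, read 6.45, 6.48 and 6.21 in DMSO and 4.95, 4.49 and 4.83 in AA. Every AA array lay below every DMSO array, at -1.63 ± 0.16 (adjusted p = 1.26e-07).

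The span of a gene from start to end in RefSeq was not used to choose the genes. The 5 that fell by at least 2-fold, Slc39a11, Slc8a1, Slc10a7, Slc24a3 and Slc25a13, spanned 182.7 to 499.1 kb, with a median of 324.2 kb. The 15 that rose by at least 2-fold spanned 3.81 to 45.4 kb, with a median of 14.5 kb, and the median of all 136 was 22.7 kb. All 17 that fell spanned 1.86 to 499.1 kb, with a median of 73.5 kb, and the 61 that rose had a median of 16.9 kb. Of the 17, 6 were over 100 kb, 9 lay between 20 and 100 kb, and Slc38a2 (12.2 kb) and Slc25a51l1 (1.86 kb) were shorter. Of the 10 genes over 100 kb, 6 fell, 1 rose (Slc39a10, 123.5 kb) and Slc23a2, Slc41a2 and Slc40a1 did not pass, with a median of -0.88. Of the 57 genes under 20 kb, 32 rose and 2 fell. The other genes tested were ordered the same way. Of 1156 other genes over 100 kb, 57.2% fell and 8.30% rose, with a median of -0.40, and of 3869 under 20 kb, 12.3% fell and 32.8% rose. Spearman's rho between span and the 72 h difference was -0.23 across the 136 genes and -0.26 across 8844 other genes. These are descriptions across genes measured on the same 6 arrays, and genes are not independent replicates.

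**Figure D4:**
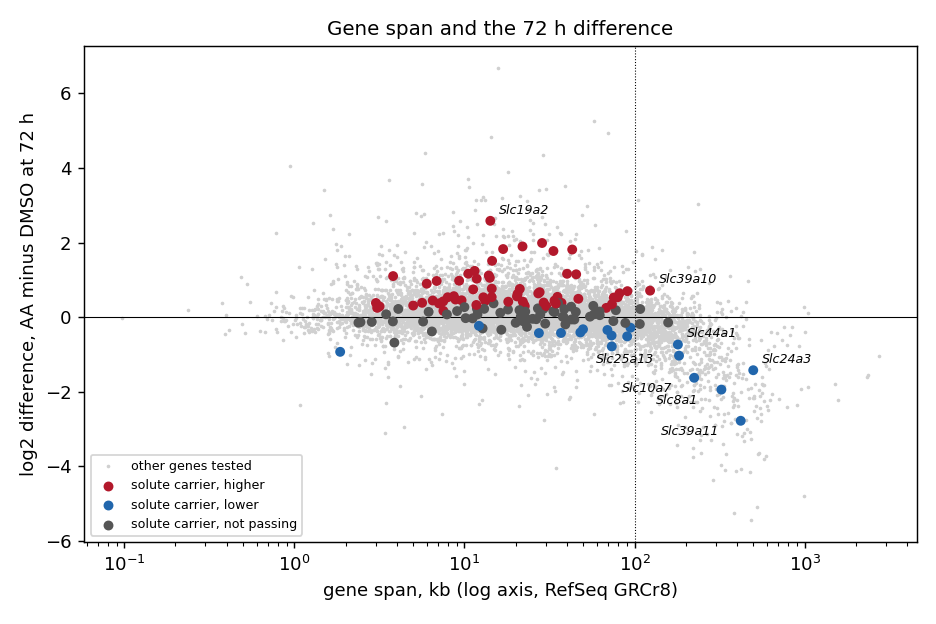
Gene span (horizontal axis, kb, log scale, RefSeq GRCr8) against the difference between AA and DMSO at 72 h (vertical axis, log2), with solute carrier genes as large points coloured by their limma call and other tested genes in pale grey; the dotted line marks 100 kb. The 5 solute carriers that fell by at least 2-fold all lie to the right of that line, among other long genes with negative differences.

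At 6 h, 40 genes passed and the changes were smaller than at 72 h. Of these calls, 16 were kept without AA replicate 3, and 8 when the 6 h arrays were fitted alone. The named genes whose call was kept in every setting tried were Slc23a2, Slc25a37, Slc25a30, Slc3a2 and Slc4a2. Slc23a2, the ascorbate transporter, fell by 0.89 on the log2 scale (SE 0.14, adjusted p = 0.000479). Slc25a37, an iron importer of mitochondria, also fell by 0.89 (SE 0.17, adjusted p = 0.00149), and Slc25a30 by 0.66. Slc3a2 was lower by a log2 difference of -0.33, opposite to its rise at 72 h. Slc4a2, the chloride and bicarbonate exchanger, rose by 0.54 ± 0.11 (adjusted p = 0.00308).

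Of the 28 mitochondrial carriers 6 rose and 6 fell at 6 h (9 and 5 with centred arrays, where 0.08 was added to every gene's difference). Uncentred, each count was 21.4% of the class. Of the 136, 15.4% rose and 13.97% fell, and of all genes 12.1% and 12.4%. The citrate carrier Slc25a1 read 9.51, 9.18 and 9.16 in DMSO and 9.51, 9.96 and 10.27 in AA. The difference was 0.63 ± 0.15 (adjusted p = 0.00579), yet AA replicate 1 lay level with the highest DMSO array. The oxoglutarate carrier Slc25a11 rose by 0.53, which was 0.38 and did not pass without AA replicate 3. Slc25a16 and Slc25a14 fell by 0.79 and 0.65, and both calls were lost when the 6 h arrays were fitted alone.

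Of the 24 metal genes 5 rose and 5 fell at 6 h (6 and 3 with centred arrays, where 0.08 was added to every gene's difference). Uncentred, each count was 20.8% of the class, against 15.4% up and 13.97% down for the 136. For all genes these were 12.1% and 12.4%. The zinc transporter Slc39a13 of the early secretory pathway had the largest increase among genes that passed and whose groups did not overlap, with 9.30, 8.90 and 8.64 in DMSO and 9.40, 9.34 and 9.77 in AA. The gap between the groups was narrow and the difference was 0.56 ± 0.14 (adjusted p = 0.00889). It did not pass without AA replicate 3 (0.42) or without DMSO replicate 3 (0.40). Slc22a17, a lipocalin receptor, fell by 0.65 on the log2 scale, and was at -0.44 without AA replicate 3, where it did not pass. Outside the metal class, Slc45a4, which has no assigned substrate, fell by 0.73. It did not pass without AA replicate 3 (-0.61) or without DMSO replicate 2 (-0.67).

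The 6 h and 72 h comparisons share no arrays, and 24 genes passed in both. Whatever their 6 h call, 44.9% of the 136 rose and 12.5% fell at 72 h, against 27.4% and 19.8% of all genes. Of the 21 genes that rose at 6 h, 12 also rose at 72 h, which is 57.1% of the 21 and 19.7% of the 61. These 12 included Slc20a1, Slc4a2, Slc7a6, Slc39a10 and Slc39a6. Over all genes tested, 354 of the 1091 that rose at 6 h rose at 72 h (32.4%). Of the 19 that fell at 6 h, 8 rose at 72 h (42.1% of the 19 and 13.1% of the 61), among them Slc19a2, Slc3a2, Slc4a7, Slc12a7 and Slc25a28. Over all genes this was 260 of 1120 (23.2%). Slc25a13, Slc38a1 and Slc35f5 rose at 6 h and fell at 72 h, which is 14.3% of the 21, against 197 of 1091 (18.1%) over all genes. Slc49a4 alone fell at both, which is 5.26% of the 19, against 213 of 1120 (19.02%). Leaving out a single 6 h array ended the 6 h call of Slc20a1, Slc7a6, Slc39a10, Slc12a7, Slc25a28, Slc38a1, Slc35f5 and Slc49a4, as it did that of Slc19a2 above.

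At 24 h, 0 solute carriers passed the limma test, and 15 had an unadjusted p under 0.05. The AA arrays all lay above the DMSO arrays for 10 genes and all below them for 19 (21.3%, against 19.5% of all genes). The largest difference was in Slc12a9, at -0.92 ± 0.26 (adjusted p = 0.0923), with 6.12, 5.44 and 6.33 in DMSO and 5.12, 5.18 and 4.85 in AA. All its AA arrays lay below the DMSO arrays, and it passed at -1.18 without DMSO replicate 2.

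The treatment difference changed between 24 h and 72 h for 56 genes, 47 upwards and 9 downwards (32.4% of all genes passed, 18.7% up and 13.7% down). Slc12a9 moved most, from -0.92 to 1.82, a change of 2.74 ± 0.37 (adjusted p = 1.46e-05). Slc19a2 changed by 2.50 ± 0.20, Slc7a5 by 2.22 ± 0.22, Slc1a4 by 1.86 ± 0.16 and Slc12a4 by 1.82 ± 0.20. Slc39a11 changed by -2.32 ± 0.23, Slc8a1 by -1.77 ± 0.24 and Slc10a7 by -1.44 ± 0.23. Between 6 h and 24 h 3 genes passed (2.43% of all genes did). Slc4a7 read 8.42, 8.44 and 8.12 in DMSO and 7.84, 7.82 and 7.87 in AA at 6 h, and 7.74, 7.66 and 7.66 in DMSO and 7.87, 7.92 and 7.91 in AA at 24 h. AA lay below DMSO at 6 h and above it at 24 h, a change of 0.70 ± 0.15 (adjusted p = 0.0283). It did not pass without DMSO 6 h replicate 2 (0.64), AA 24 h replicate 2 (0.69) or 3 (0.69), or DMSO 24 h replicate 2 (0.68). Slc25a30, at 0.58, did not pass in 9 of 12 such fits (0.47 to 0.63), and Slc24a3, at -0.62, in 10 of 12 (-0.69 to -0.53).

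Solute carrier levels also moved with time in the controls. In DMSO, 36 rose and 36 fell from 6 to 24 h, with 58.7% of all genes passing. From 24 to 72 h 13 rose and 31 fell, with 34.3% of all genes passing, 17.2% up and 17.1% down. With each array centred on its median, 34 rose and 41 fell from 6 to 24 h. From 24 to 72 h the centred split was 13 and 23. Centring moved every gene's difference by -0.04 from 6 to 24 h and by 0.05 from 24 to 72 h. The comparisons over time in DMSO share their arrays with those of AA against DMSO. Beside Slc7a5 and Slc30a1, the largest falls from 6 to 24 h were in Slc25a37 (-1.84), Slc25a33 (-1.60) and Slc45a4 (-1.31). The largest rises were in Slc25a27, a mitochondrial uncoupling protein gene (2.16 ± 0.21), Slc24a3 (2.08 ± 0.12), the glutamate transporter Slc1a3 (1.59 ± 0.10), the fructose transporter Slc2a5 (1.53 ± 0.19) and Slc46a1 (1.51 ± 0.16). Slc25a27 read 2.85, 2.81 and 2.78 at 6 h, near the floor, and 4.93, 4.77 and 5.24 at 24 h, so the size of its rise depends on the background model. Slc25a37 reached the floor at 24 h, with a mean of 3.95, and the same holds for its fall.

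Slc24a3 and Slc1a3 went on rising from 24 to 72 h, by 0.84 and 1.12, as did Slc25a27, by 1.21. The largest rise in that interval was in Slc22a17, at 1.39 ± 0.18 (adjusted p = 7.04e-06), and Slc8b1 rose by 0.67. Slc39a11 was at -1.10, the magnesium transporter gene Slc41a3 at -1.08 and Slc12a9 at -1.04, all passing. For Slc24a3 the AA arrays at 24 h read 9.85, 10.13 and 10.16 and at 72 h 10.06, 9.85 and 9.67.

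Solute carriers depend on ion pumps, subunits and regulators, and 27 of 36 listed partner genes passed the filter. At 72 h 11 rose and 2 fell, with a median of 0.18, where 27.4% of all genes rose and 19.8% fell. Subunits of the vacuolar proton pump, which acidifies lysosomes and feeds proton-coupled carriers there, made up 8 of the 11, out of 13 such subunits tested. Atp6v0a1 rose by 1.45 (adjusted p = 1.31e-05), Atp6v1d by 1.29 (adjusted p = 9.3e-11) and Atp6v0c by 0.74. Fxyd5, a regulator of the sodium pump, rose by 1.13, and Bsg, the chaperone of Slc16a1, by 0.18. The sodium pump subunit Atp1b1 was at -0.25 and Atp1b3 at 0.23, both passing. Nedd4l, a ubiquitin ligase that removes several channels and carriers from the membrane, was at -1.84 (adjusted p = 3.18e-09). In DMSO from 24 to 72 h, 14 of the 27 partners fell and 2 rose, where 17.1% of all genes fell and 17.2% rose. Fxyd5, Atp6v0a1, Atp6v1d and Atp6v0c were among those that fell. In AA the mean of Fxyd5 was also lower at 72 h (9.34) than at 24 h (10.17). The AA means of Atp6v0a1 (7.18 and 7.83), Atp6v1d (13.24 and 14.13) and Atp6v0c (12.66 and 13.16) were higher at 72 h than at 24 h. No time difference within AA was tested. In AA against DMSO at 6 h, 2 of the 27 partners rose, Atp6v1f and Nherf2, and 0 fell. Of all genes 12.1% rose and 12.4% fell at 6 h. At 24 h 0 of 27 passed, against 2.09% of all genes.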

How the data were processed

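RNA of 18 cultures, 3 in each of 6 groups, was measured on Affymetrix rat arrays, with labelled cRNA from total RNA, per the labels' protocols. The deposited values are log2 expression for each probe set on each array, made by the authors with GCRMA per the submitters' processing notes. GCRMA corrects background from probe sequence, which sets weak probe sets near a floor, so differences that reach it depend on that model. Version and settings were not given in the sources used here. Array medians lay between 4.03 and 4.20. The number of arrays limits the precision, and the median SD between replicates was 0.15 over the solute carriers.

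Of 31099 probe sets, 57 were controls, 20826 had 1 gene symbol in the platform annotation, 436 several and 9831 none. Only those with 1 symbol were used, and 20758 were matched to current names of RefSeq GRCr8. Of the 136 genes, 48 had several probe sets. One limma fit (version 3.58.1, R 4.3.3) held all 18 arrays (6 group means, intensity trend, 12 residual and 7.27 prior degrees of freedom). P-values were adjusted by Benjamini-Hochberg over 9015 genes within each of 7 comparisons, and adjusted p under 0.05 passed. The fit was tested on simulated data over 9015 genes with known changes in AA at 72 h. It called 61.2% of 67 genes at a change of log2 0.5, 91% of 67 at 1 and 100% of 66 at 2. Of its calls, 5.62% were false. Only those genes were changed and the noise was independent between arrays and genes, while 47.2% of all genes passed at 72 h in the data. The simulated figures are therefore not the error rates of the reported calls.

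A naming rule took the 10 largest changes each way between AA and DMSO at each time, among passing genes whose arrays did not overlap. In the other comparisons it took the 5 largest each way among passing genes. It also took the 2 highest probe sets and the largest 72 h change of a class, and a set with well known roles. Some genes it took, among them Slc25a39, Slc35a1 and Slc66a3, are not described in the text. Other genes named in the class descriptions, the promoter motifs and the sequences were chosen after their values were seen. The members, classes, partner and marker lists were chosen with earlier results of these data known. One of that set is not reported here. The alternatives were another scaling, filter, variance model or probe set rule, fits of the compared arrays alone, a replicate block and leaving out each array.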

Additional observations from a re-analysis of the deposited data

Results flagged for a closer look

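The treatment difference itself changed between times for 13 named results, each by limma's test of that change. From 24 h to 72 h it rose for Slc12a9 (2.74), Slc19a2 (2.50), Slc7a5 (2.22), Slc1a4 (1.86) and Slc12a4 (1.82), on the log2 scale. Over the same interval it was lower for Slc39a11 (-2.32), Slc8a1 (-1.77), Slc10a7 (-1.44), Slc24a3 (-1.03) and Slc25a13 (-0.997). All 10 kept their call in every setting tried. Slc12a9 changed sides, with all AA arrays below the DMSO arrays at 24 h and all above them at 72 h. From 6 h to 24 h the difference changed for Slc4a7 (0.70), Slc25a30 (0.58) and Slc24a3 (-0.62), and each of these 3 calls was lost in at least 1 setting.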

How the results depend on the processing

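The number of solute carriers passing at 6 h, 40, ranged from 16 to 46 when 1 array was left out, with 16 without AA replicate 3, and was 8 when the 6 h arrays were fitted alone. At 24 h it was 0 to 1 when 1 array was left out and 0 in the other settings. At 72 h it was 67 to 81 when 1 array was left out, against 78, and 72 to 81 in the other settings. For the change from 24 h to 72 h these ranges were 46 to 59 and 50 to 63, against 56. For the change from 6 h to 24 h, 3 genes passed, 0 to 10 when 1 array was left out, and 1 each in the fit of the compared arrays, with no filter and with probe sets averaged. With centred arrays that split was 1 higher and 2 lower, against 2 and 1. In DMSO the counts were 66 to 71 from 6 to 24 h and 33 to 41 from 24 to 72 h when 1 array was left out. Among genes taken by the naming rule, 5 of 23 calls at 6 h and 30 of 35 at 72 h were kept in every setting. The one reversal was Slc39a14 at 6 h, which was 0.29 with its probe sets averaged, against -0.06, which did not pass. Its second probe set, of mean 4.12, gave 0.64. Deviations of same-numbered AA and DMSO arrays from their group means correlated at r of -0.16 to 0.16 over the 3 times. For arrays of unlike number r was -0.181 to 0.285. Such correlations cannot show whether same-numbered cultures were handled together, and the main fit did not pair them. With the replicate number as a block 38, 0 and 80 genes passed at 6, 24 and 72 h, 3 and 58 for the changes between times, and 73 and 46 in DMSO. Levels below log2 4 lie near the floor and limit Slc39a11 and Slc30a1 at 72 h and Slc25a37 in DMSO at 24 h. The same holds at 6 h for Slc25a27 in DMSO and for Slc38a9 and the group means of Slc29a1 in both arms. The causes of these shifts were not tested.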
